A study of Mus musculus with 18 samples.

Results

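Expression of 10 mouse genes, Olfm1, Flot1, Gpr146, Gpr171, Htr7, Zdhhc23, Eps8, Cyth4, Sema6b and Vwa1, was examined in purified dendritic cells of WT and KO genotype kept as a control or given lipopolysaccharide (LPS), the bacterial cell wall component that Toll-like receptor 4 senses. They were chosen from these data: without LPS the genotypes did not differ beyond the test's threshold, and with LPS the KO level was lower. All 10 are among the 16614 genes of the deposited table, and all 10 passed the filter on low counts that left 11989 genes for testing. The difference between KO and WT in either condition, and the change of that difference with LPS, therefore chose the genes and are given as descriptions. The change with LPS averaged over both genotypes comes from the same libraries and contains the low KO LPS levels that the choice favoured. It is given with an adjusted p only for the 6 genes that were lower with LPS in WT as well, and for the other 4 as a description. The 6 were set apart by their sign in these same libraries, so their adjusted p is no independent test of a fall.

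The cells were bone marrow-derived dendritic cells (BMDC), grown in GM-CSF and Flt3L and purified by XCR1, a surface receptor of type 1 conventional dendritic cells (cDC1). Groups were WT control and KO control with 4 libraries each, and WT LPS and KO LPS with 5 libraries each. The sources used here name neither the deleted gene nor the promoter or Cre behind a deletion, and they give no strain or age of the mice and no LPS dose or time. Nothing in the labels says whether replicates came from separate animals or cultures, so p-values measure the spread between these libraries, which may be technical.

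LPS makes dendritic cells mature: they stop taking up antigen, move antigen-loaded MHC molecules and co-stimulatory proteins to the surface, and release cytokines that act back on them through JAK kinases and STAT factors. Maturation also changes the set of surface receptors, the actin skeleton and the traffic of membrane vesicles. The 10 genes differ in the place of their products. Gpr146, Gpr171 and Htr7 encode G protein-coupled receptors, Sema6b a transmembrane semaphorin, Olfm1 and Vwa1 secreted proteins, and Flot1, Zdhhc23, Eps8 and Cyth4 proteins that act at the inner face of the membrane.

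Promoter windows from RefSeq on build GRCm38.p6 were matched by symbol to 6 of the 10 genes, as 10 windows that run from 250 bases before a transcript start to 50 after it. Olfm1, Gpr146 and Sema6b have several windows, and which start these cells use was not measured. Both strands were searched for 5 motifs, since the genes were chosen for a shared difference between genotypes: the gamma-activated site bound by STAT dimers (TTCNNNGAA), the interferon-stimulated response element (GAAANNGAAA), the AP-1 site (TGANTCA), the NF-kB site, and the core of the cyclic AMP response element (TGACG). The 4 windows with a match to 1 of the first 3 motifs are shown, and that of Htr7, whose protein signals through cyclic AMP. Each is written 5′ to 3′ on the strand of its gene for 280 bases, with matches in capitals.
Gpr146 window 2, chr5:139380389-139380668, plus strand: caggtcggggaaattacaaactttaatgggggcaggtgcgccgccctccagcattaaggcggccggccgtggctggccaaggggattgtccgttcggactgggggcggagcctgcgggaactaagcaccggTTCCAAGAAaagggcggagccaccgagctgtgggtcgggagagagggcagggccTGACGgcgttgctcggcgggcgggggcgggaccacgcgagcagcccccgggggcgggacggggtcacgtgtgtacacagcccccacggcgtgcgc
Gpr146 window 3, chr5:139389654-139389933, plus strand: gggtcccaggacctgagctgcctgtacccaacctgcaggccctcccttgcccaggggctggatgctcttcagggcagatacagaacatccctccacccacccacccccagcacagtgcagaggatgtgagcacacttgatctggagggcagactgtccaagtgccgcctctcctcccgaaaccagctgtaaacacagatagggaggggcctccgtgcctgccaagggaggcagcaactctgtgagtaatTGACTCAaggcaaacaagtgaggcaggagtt
Sema6b window 1, chr17:56140314-56140593, minus strand: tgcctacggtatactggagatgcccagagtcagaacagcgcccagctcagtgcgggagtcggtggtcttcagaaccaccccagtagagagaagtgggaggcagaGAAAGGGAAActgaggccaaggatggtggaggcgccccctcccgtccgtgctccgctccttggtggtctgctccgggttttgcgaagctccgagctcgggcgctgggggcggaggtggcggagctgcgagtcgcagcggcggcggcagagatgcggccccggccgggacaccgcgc
Sema6b window 2, chr17:56133823-56134102, minus strand: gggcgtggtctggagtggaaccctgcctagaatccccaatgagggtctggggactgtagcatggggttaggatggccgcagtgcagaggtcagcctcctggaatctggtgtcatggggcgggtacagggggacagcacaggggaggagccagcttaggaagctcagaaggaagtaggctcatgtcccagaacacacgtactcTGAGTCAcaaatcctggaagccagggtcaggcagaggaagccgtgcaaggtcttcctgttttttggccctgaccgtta
Htr7 window 1, chr19:36057331-36057610, minus strand: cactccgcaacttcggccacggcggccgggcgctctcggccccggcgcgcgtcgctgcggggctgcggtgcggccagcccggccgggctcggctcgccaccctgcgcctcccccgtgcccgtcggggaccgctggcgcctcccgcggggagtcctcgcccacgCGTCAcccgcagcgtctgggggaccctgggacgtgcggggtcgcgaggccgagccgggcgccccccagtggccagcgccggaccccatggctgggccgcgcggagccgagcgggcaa

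With the first transcribed base counted as 0, the capitals in Gpr146 window 2 mark a gamma-activated site at -119 to -111 and a cyclic AMP core at -65 to -61. In Gpr146 window 3 they mark an AP-1 site at -1 to 5. Sema6b window 1 held an interferon-stimulated response element at -146 to -137, and Sema6b window 2 an AP-1 site at -48 to -42. Htr7 held a cyclic AMP core, read on the opposite strand, at -87 to -83, and Gpr146 window 1, which is not shown, held another at -189 to -185. Of all 32851 RefSeq windows of this length, 8.3% held a gamma-activated site, 3.44% an interferon-stimulated response element, 7.81% an AP-1 site, 8.46% an NF-kB site and 20.8% a cyclic AMP core. No window of the 10 genes held the NF-kB letters. No motif was common to all 6 genes: the gamma-activated site was in 1 gene, the interferon element in 1, and the AP-1 site and the cyclic AMP core in 2 each. Counted by window, as those shares are, they were in 1, 1, 2 and 3 of the 10 windows. A match is a run of letters in a window and not a measured binding site.

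Library totals lay between 25590104 and 27375189 estimated counts, so depth was close to even. Levels are in CPM, counts relative to a library total scaled with TMM factors, which averaged 1.36 and 1.32 in WT and KO control and 0.814 and 0.769 in WT and KO LPS. Of the 10 cDC1 markers, all had a mean of at least 5 CPM in every group, with summed levels of 6801 to 8317 CPM in WT LPS and 6377 to 7413 CPM in KO LPS. These sums are carried by Wdfy4 and Irf8. With LPS 1 of the 10 markers was called higher in KO, Cadm1 (113 to 155 CPM), and 4 were called lower, namely Naaa (986 to 514 CPM), Itgae, Batf3 and Xcr1. Xcr1 itself, on which the cells were selected, was lower in KO both in control (109 against 175 CPM, log2 fold change -0.68 ± 0.0672 SE) and with LPS (281 against 428 CPM, -0.61 ± 0.0598). Summed cDC2 markers ran from 175.7 to 261.3 CPM in WT LPS and from 138.5 to 189.8 CPM in KO LPS, with none of the 9 markers at 0. The lower KO sum came mainly from Itgam (85.6 to 51.2 CPM) and Clec12a (37.3 to 26.8 CPM), the 2 of 7 tested markers that were called. Irf4 (39.7 and 45.3 CPM) and Sirpa (36.3 and 39.7 CPM) were not called, and the median of the 7 was 0.09. Summed monocyte and macrophage markers were higher, at 1374 to 1744 CPM in WT LPS and 1187 to 1839 CPM in KO LPS. Most of that sum was Lyz2 (1148 and 1036 CPM). Of these 12 markers 1 was called lower in KO with LPS, Ccr2 (82.6 to 59.5 CPM), and 0 higher. The part of these markers in the results below was not tested. Neutrophil markers reached a sum of 90.2 CPM in WT LPS replicate 5 and 31.1 CPM in WT control replicate 4, against at most 4.36 CPM in any KO library. WT LPS replicate 2 stood apart, with a root mean square log2 deviation from its group of 0.392 over genes, where the other LPS libraries had 0.196 to 0.269 and the controls 0.139 to 0.184. Of the genes called with LPS, 49.1% were higher in KO, but 23.0% when libraries were scaled by total counts alone.

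**Figure D1:**
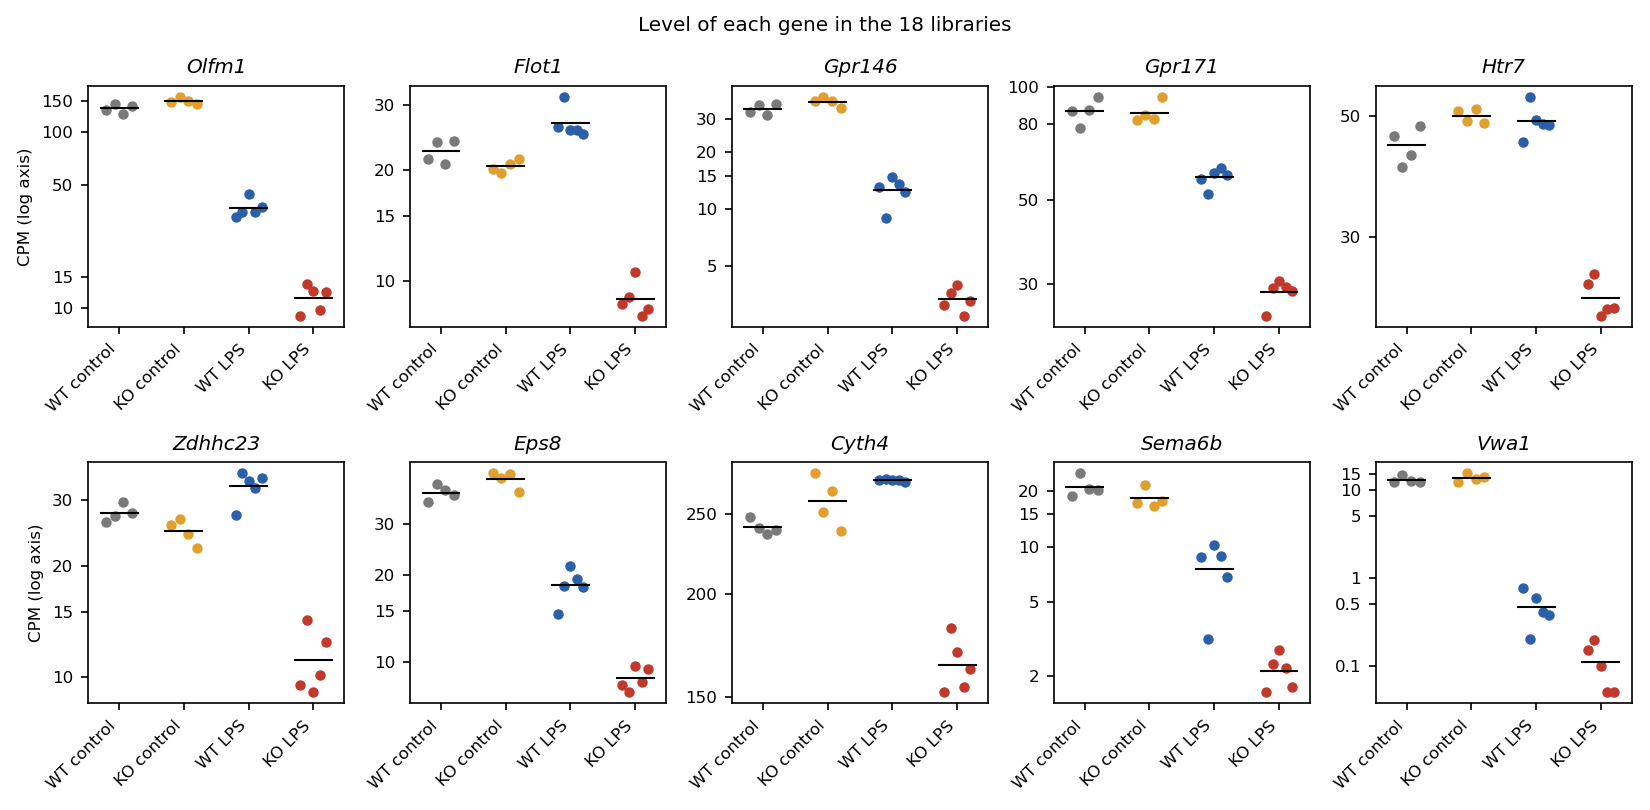
Level of each of the 10 genes in CPM, on a log axis, in the 18 libraries. Points are libraries in order of replicate number and bars are group means; in each panel the 5 KO LPS points lie below the 5 WT LPS points, while the control groups lie close together.

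In each of the 10 genes the 5 KO LPS libraries lay below the 5 WT LPS libraries. In these bulk libraries, fewer cells that express a gene and less RNA per cell cannot be told apart. The lack of overlap follows from the choice of the genes and is no test; 3.2% of all genes tested had KO LPS libraries lower without overlap. KO was lower with LPS by 1.68-fold for Cyth4 up to 4.18-fold for Vwa1, with a median log2 fold change of -1.57 against -0.02 over all genes tested. In control the fold changes ran from -0.21 to 0.18, and none of the 10 was called, where 2.41% of all genes were. A p that misses the threshold does not show equal levels, and for Sema6b, the least precise in control, the SE was 0.187.

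Averaged over both genotypes, the fitted change with LPS was below 0 for each of the 10 genes. For Flot1, Htr7, Zdhhc23 and Cyth4 the sign comes from KO alone, whose low level with LPS chose them. Adjusted p-values below, for the 6 others, are from edgeR's quasi-likelihood test with Benjamini-Hochberg adjustment over 11989 genes. They do not allow for the choice of these genes. LPS moved most of what these cells express: 90.1% of genes were called in this comparison and 47.7% were called lower, so a fall with LPS is by itself common. The median of the 10 was -1.38 and that of all genes tested -0.08. The values ran from -0.24 for Cyth4 to -5.84 for Vwa1. When scaled by total counts alone, the median of all genes moved to -0.84, so changes with LPS are relative to the scaling.

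**Figure D2:**
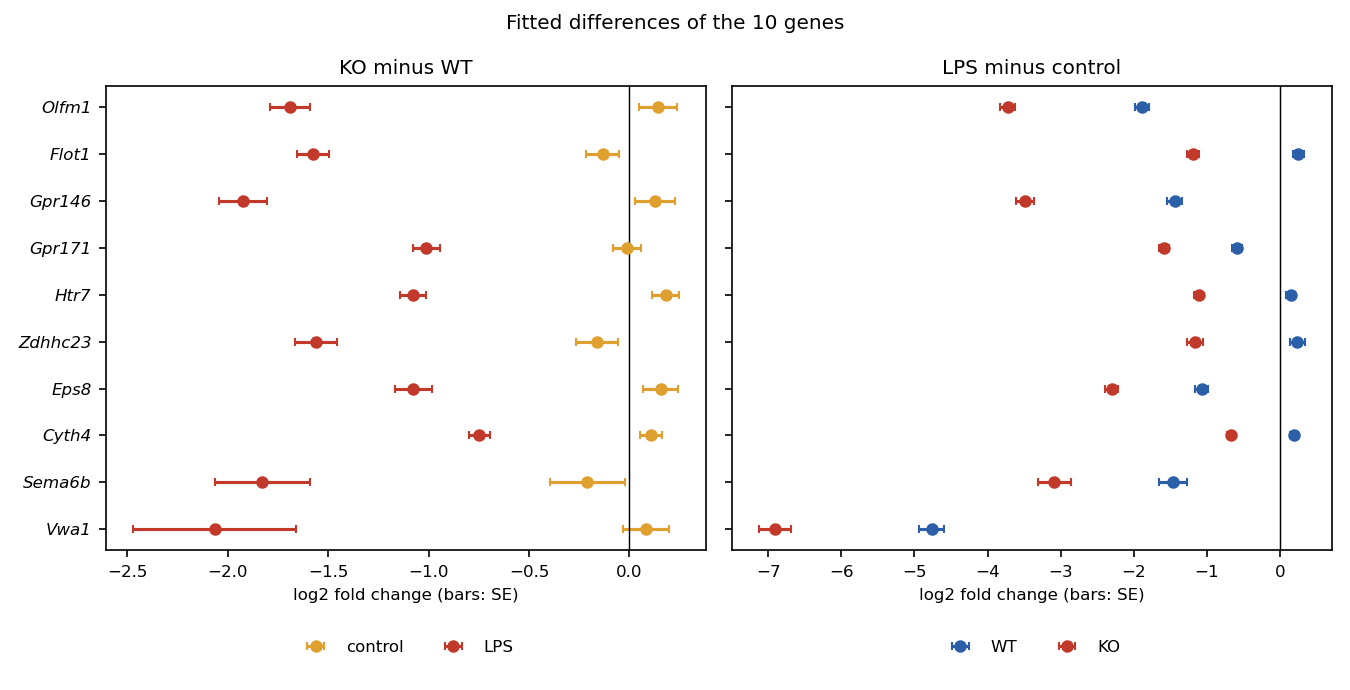
Fitted log2 fold changes of the 10 genes with SE bars, KO minus WT in control and with LPS on the left, LPS minus control in WT and in KO on the right. On the left the control values lie between -0.21 and 0.18 and the LPS values between -0.75 and -2.06; on the right Flot1, Htr7, Zdhhc23 and Cyth4 lie just above 0 in WT and below it in KO.

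Behind that average the genes fell into 2 sets by their change with LPS in WT cells, which shares libraries with the choice and is given as a description. Olfm1, Gpr146, Gpr171, Eps8, Sema6b and Vwa1 were lower with LPS already in WT, with log2 values of -0.59 (Gpr171) to -4.76 (Vwa1), and lower still in KO, at -1.58 (Gpr171) to -6.91 (Vwa1). Flot1, Htr7, Zdhhc23 and Cyth4 were slightly higher with LPS in WT, by 0.15 to 0.25, and lower in KO, at -0.66 (Cyth4) to -1.19 (Flot1). Over all genes, 44.7% were called lower and 40.7% higher with LPS in WT, and 46.2% lower in KO. The small rises in WT depended on the scaling: with total counts alone Flot1, Htr7, Zdhhc23 and Cyth4 took the values -0.50, -0.60, -0.51 and -0.55, each still above the median of all genes there, -0.80. Of these 4 rises, 2 were called without WT LPS replicate 2, WT LPS replicate 3 or WT control replicate 2, and 3 without WT LPS replicate 4 or 5 or WT control replicate 1, 3 or 4. With no filter on low counts, or with a block of library runs, 2 were called, Flot1 and Cyth4. Library runs here are groups of 4 consecutive library numbers, and no label names them as a run or batch. The difference between the LPS changes of KO and WT ran from -0.85 for Cyth4 to -2.15 for Vwa1, and 2.79% of all genes were called with a negative difference.

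**Figure D3:**
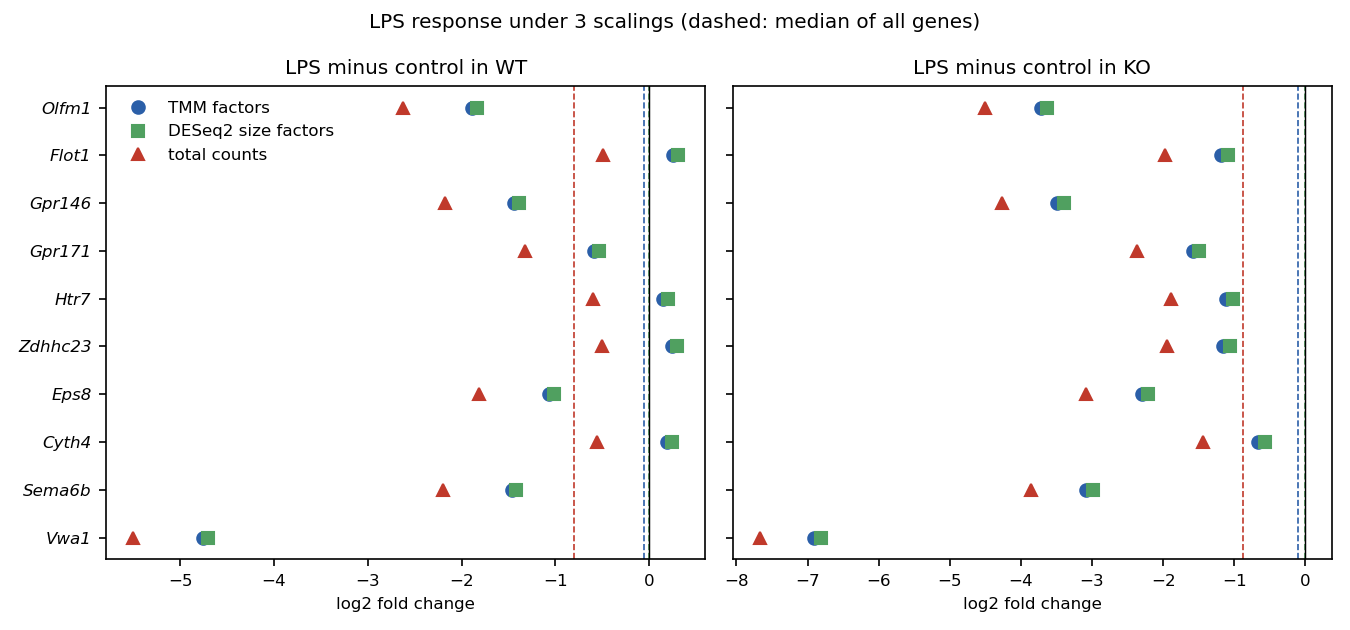
Log2 fold change of LPS minus control in WT and in KO for the 10 genes under 3 scalings, with the median of all genes as a dashed line. Flot1, Htr7, Zdhhc23 and Cyth4 in WT lie above 0 with TMM and DESeq2 size factors and at -0.50 to -0.60 with total counts, where the median of all genes is -0.80.

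Among the receptors, Gpr146 (gene ID 80290), an orphan receptor known from liver, where it affects plasma cholesterol, showed the strongest loss. Its control libraries, in order of replicate number, held 32.6, 35.8, 31.7 and 35.9 CPM in WT and 37.5, 39.3, 37.5 and 34.5 CPM in KO. With LPS they held 13.1, 8.99, 14.8, 13.5 and 12.3 CPM in WT and 3.07, 3.56, 3.95, 2.71 and 3.26 CPM in KO. Control groups overlapped, LPS groups did not, and WT replicate 2 was the lowest WT library with LPS. The means with LPS were 12.5 ± 2.18 CPM (SD, n = 5) in WT and 3.31 ± 0.474 CPM (SD, n = 5) in KO, a 3.79-fold difference. Averaged over genotypes, the log2 change of Gpr146 with LPS was -2.46 ± 0.0776 SE (adjusted p = 5.95e-17).

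Gpr171 (229323), a receptor of the neuropeptide BigLEN, kept more of its level. Control libraries held 86.3, 77.7, 87.1 and 94.2 CPM in WT and 81.6, 84.3, 82.5 and 94.0 CPM in KO. LPS libraries held 57.1, 52.0, 59.0, 61.1 and 58.2 CPM in WT and 24.6, 29.3, 30.5, 29.5 and 28.8 CPM in KO. The control means, 86.3 ± 6.75 and 85.6 ± 5.72 CPM (SD, n = 4), were the closest pair among the 10 genes in fold change, at -0.01. KO replicate 1 was the lowest library with LPS, and the means of 57.5 ± 3.39 and 28.5 ± 2.28 CPM (SD, n = 5) differed 2.02-fold. The averaged log2 change with LPS was -1.08 ± 0.0481 SE (adjusted p = 1.51e-14).

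Htr7 (15566), a serotonin receptor that raises cyclic AMP through the G protein Gs, was the 1 of the 10 whose control groups did not overlap, with KO above WT. WT control libraries held 45.9, 40.3, 42.4 and 47.9 CPM, and KO control libraries 51.1, 48.9, 51.5 and 48.4 CPM. That difference was 0.18 ± 0.0672 SE with an adjusted p of 0.201, and 9.22% of all genes had KO control libraries higher without overlap. With LPS the order turned: WT held 44.7, 54.2, 49.1, 48.4 and 48.1 CPM, at about the control level, and KO held 24.5, 25.6, 21.4, 22.1 and 22.1 CPM. KO was thus 2.11-fold lower, with means of 48.9 ± 3.40 and 23.2 ± 1.79 CPM (SD, n = 5). The averaged change with LPS was -0.48 ± 0.0461, and it combines 0.15 in WT with -1.11 in KO.

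Sema6b (20359), a transmembrane semaphorin whose known receptors are plexins of class A, was low with LPS and had a library far below the others in WT. Control libraries held 18.7, 24.8, 20.4 and 20.2 CPM in WT and 17.2, 21.4, 16.5 and 17.6 CPM in KO. With LPS, WT held 8.73, 3.17, 10.1, 8.91 and 6.89 CPM and KO held 1.64, 2.32, 2.77, 2.21 and 1.75 CPM. WT replicate 2, at 3.17 CPM, lay nearer to the KO libraries than to the next WT library. KO was 3.55-fold lower (log2 -1.83 ± 0.237 SE), and 4.05-fold lower without that library. Over the alternatives run, the log2 value for Sema6b went from -2.05, without both LPS replicates 2, to -1.7, without WT LPS replicate 3. The averaged fall with LPS was -2.28 ± 0.149 (adjusted p = 9.77e-12).

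Olfm1 (56177) encodes noelin, a secreted glycoprotein known from nerve tissue. It held 134, 146, 128 and 141 CPM in WT control and 150, 159, 152 and 145 CPM in KO control. With LPS it held 33.0, 35.3, 44.4, 35.0 and 37.5 CPM in WT and 9.01, 13.7, 12.5, 9.77 and 12.3 CPM in KO. Both genotypes were thus far below control, and the highest KO library with LPS was under the lowest WT library. The means with LPS were 37.0 ± 4.41 and 11.5 ± 1.98 CPM (SD, n = 5), a 3.23-fold difference, and the averaged fall was -2.80 ± 0.0687 (adjusted p = 1.06e-18).

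Vwa1 (246228) encodes an extracellular matrix protein with a von Willebrand factor A domain. It held 12.4, 14.6, 12.8 and 12.2 CPM in WT control and 12.3, 15.4, 13.4 and 14.0 CPM in KO control, and with LPS it was almost lost in both genotypes. WT LPS libraries held 0.761, 0.204, 0.591, 0.405 and 0.380 CPM, and KO LPS libraries 0.154, 0.198, 0.0988, 0.0501 and 0.0501 CPM. These levels rest on 51 counts over the WT libraries and 11 over the KO libraries, and WT replicate 2 and KO replicate 2 had 4 counts each. The ratio of those counts, KO to WT and scaled for library size, was 0.231 (95% exact interval 0.109 to 0.450, counting error only). That difference chose the gene and the interval leaves out the spread between libraries, so it is no test. Most LPS libraries held fewer than the filter's minimum count of 10, so Vwa1 was kept through its control levels, which favours a fall. The averaged fall with LPS, -5.84 ± 0.139 (adjusted p = 6.99e-19), was the largest of the 10 and is no independent test. The genotype difference, 4.18-fold, was the least precise, with an SE of 0.405 on the log2 scale. Without WT LPS replicate 2 it was 4.72-fold, and without both LPS replicates 2 it was 5.86-fold. The latter, at -2.55 on the log2 scale, was the largest over the alternatives run, and the smallest was -1.82, without WT LPS replicate 1.

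Flot1 (14251) encodes flotillin-1, a scaffold of membrane microdomains that assembles with flotillin-2. It held 21.3, 23.7, 20.8 and 23.9 CPM in WT control and 20.1, 19.6, 20.8 and 21.4 CPM in KO control. With LPS it held 26.1, 31.5, 25.5, 25.7 and 25.0 CPM in WT and 8.70, 9.10, 10.6, 8.07 and 8.42 CPM in KO. WT libraries lay above every control library of either genotype and KO libraries below all of them, so the genotypes moved apart in opposite directions on this scale. The means with LPS were 26.8 ± 2.65 and 8.97 ± 0.971 CPM (SD, n = 5), a 2.98-fold difference, and the averaged change was -0.47 ± 0.0564.

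Zdhhc23 (332175), an enzyme of the DHHC family that attaches palmitate to proteins, had the same layout. It held 26.2, 27.2, 29.6 and 27.7 CPM in WT control and 25.7, 26.7, 24.4 and 22.3 CPM in KO control. LPS libraries held 27.5, 35.4, 33.9, 32.5 and 34.4 CPM in WT and 9.52, 14.2, 9.09, 10.1 and 12.4 CPM in KO. WT replicate 1 with LPS stayed within the control range and the other 4 lay above it. The means with LPS, 32.7 ± 3.13 and 11.1 ± 2.19 CPM (SD, n = 5), differed 2.95-fold, and the averaged change was -0.46 ± 0.0734.

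Eps8 (13860) caps and bundles actin filaments and links growth factor receptors to Rac. Control libraries held 35.8, 41.4, 39.5 and 37.8 CPM in WT and 45.1, 43.4, 44.8 and 38.9 CPM in KO. With LPS, WT held 14.6, 18.4, 21.5, 19.4 and 18.1 CPM and KO held 8.29, 7.81, 9.68, 8.47 and 9.42 CPM. In control 3 of 4 KO libraries lay above all WT libraries, and with LPS all 5 lay below them. KO was 2.11-fold lower with LPS, and the averaged fall was -1.68 ± 0.0626 (adjusted p = 8.49e-16).

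Cyth4 (72318), a cytohesin that loads ARF GTPases with GTP and is known from blood cells, was the most abundant of the 10 by length-scaled level, at 198 TPM in WT control, where Zdhhc23 was lowest at 10.4 TPM. Control libraries held 248, 241, 236 and 239 CPM in WT and 280, 252, 267 and 238 CPM in KO. WT LPS libraries held 275, 276, 275, 275 and 274 CPM, with an SD of 0.795, and KO LPS libraries held 152, 182, 170, 154 and 162 CPM. The WT libraries with LPS were thus almost identical to each other, while the KO libraries spread over a wider range (164 ± 12.3 CPM, SD, n = 5). The WT SD is smaller than counting error alone would give at 5401 to 6142 counts per library, so it does not measure the spread of WT. KO was 1.68-fold lower, the smallest difference of the 10 and the one with the smallest SE (log2 -0.75 ± 0.0514 SE). The averaged change with LPS was -0.24 ± 0.0381.

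Set against the WT library of the same replicate number, the KO library with LPS was lower in 5 of 5 cases for all 10 genes. Since the LPS groups did not overlap, any matching of libraries would give this count, so it is no test. On log2 CPM with a prior count of 2, the differences for Sema6b ran from -2.36 to -0.43 and those for Vwa1 from -1.96 to -0.03, with replicate 2 the smallest in both. For the other 8 genes the smallest of the 5 differences lay between -0.60 (Cyth4) and -1.36 (Olfm1). Replicate 2 was also the smallest for Olfm1, Gpr146, Gpr171, Zdhhc23 and Cyth4, but the greatest for Flot1 and Eps8. Over the 10 genes KO LPS replicate 2 deviated from its group by 0.176 on average (log2), with 9 of 10 above the group mean, and WT LPS replicate 2 by -0.214.

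**Figure D4:**
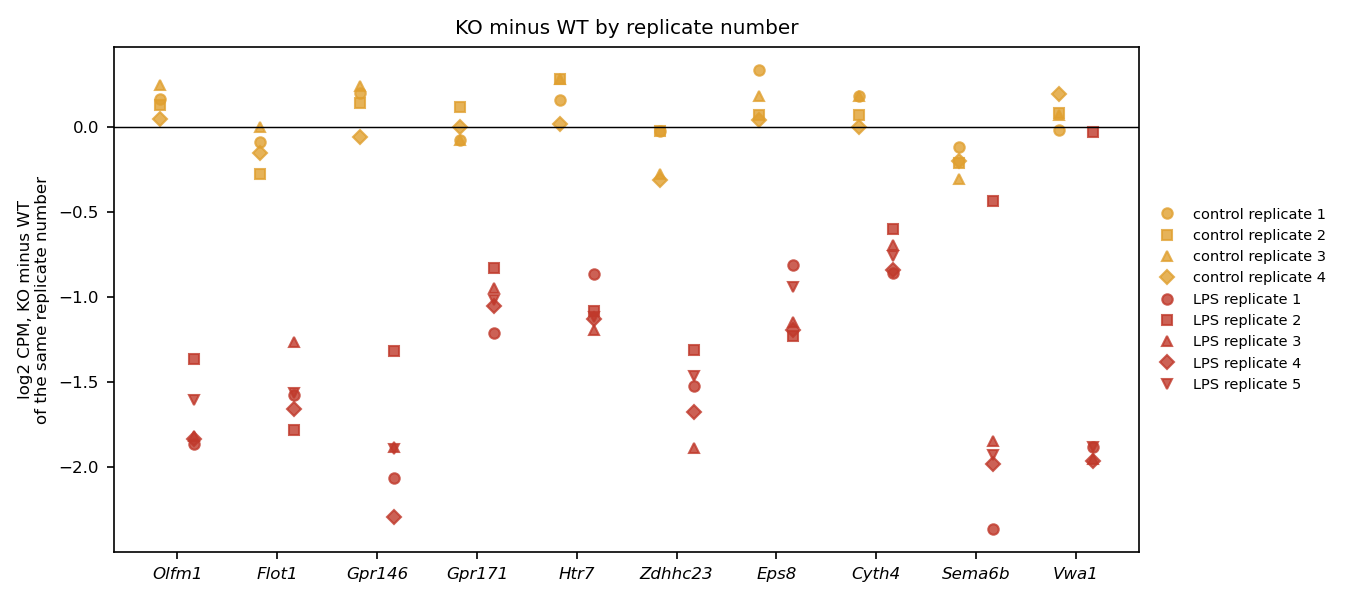
Difference of log2 CPM (prior count 2) between the KO and the WT library of the same replicate number, for each of the 10 genes in control and with LPS. All LPS points lie below 0, as the lack of overlap between the LPS groups requires, and LPS replicate 2 lies nearest to it for Sema6b and Vwa1, at -0.43 and -0.03.

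Within groups the genes varied little with each other. Over 45 pairs of genes the median Pearson r of the deviations from group means over 18 libraries was 0.142, and 29 pairs were positive. The pair with the highest value was Gpr146 and Sema6b (0.839), which share the low value in WT LPS replicate 2; without both LPS replicates 2 the highest pair was Olfm1 and Gpr146 (0.707). Htr7 and Sema6b had the lowest value (-0.56). These values are descriptions over libraries that share depth and preparation. The SD of log2 CPM within groups ran from 0.0752 for Cyth4 to 0.432 for Vwa1, beside a median of 0.146 over all genes.

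A wider set was drawn by criteria close to the choice of the 10 genes, with a floor on the level added: called lower in KO with LPS, not called in control, called with a negative difference of the LPS changes, and at least 5 CPM in WT LPS. It held 182 genes, among them 9 of the 10; Vwa1 was under 5 CPM. By fold change in KO with LPS, Gpr146, Sema6b, Olfm1, Flot1 and Zdhhc23 held the first 5 places, Htr7 and Eps8 places 10 and 11, Gpr171 place 18 and Cyth4 place 42. Thus 33 other genes of the set had a larger loss than Cyth4. The nearest of these above it were Lrrc25 (-0.78), B3gnt3 (-0.76) and Snx18 (-0.75, a sorting nexin), and the nearest below were Atf6 (-0.75, a sensor of endoplasmic reticulum stress), Cpox (-0.72, a heme synthesis enzyme) and Gyg (-0.72, glycogenin). In the set 68.1% of genes were called lower and 27.5% higher with LPS averaged over genotypes, beside 47.7% and 42.5% of all genes tested. The set was chosen for low KO LPS levels, which enter this average, so the shares are a description.

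Over the 10 LPS libraries, 8478 other genes of at least 5 CPM were ranked by Pearson r with the mean standardised log2 CPM of the 10 genes. The most alike were Marchf1 (0.994), a ubiquitin ligase of MHC class II and CD86, Picalm (0.989), a clathrin adaptor, Ptpn1 (0.988), a tyrosine phosphatase, Spint1 (0.988), a serine protease inhibitor, and Fgr (0.987), a Src family kinase. Unlike the 10 genes, Fgr was also called in control, where it was higher in KO (0.28 ± 0.0454 SE, edgeR adjusted p = 0.00159). Marchf1 fell from 131 CPM in WT LPS to 62.7 CPM in KO LPS (-1.06 ± 0.0675). This is a description, since its r over the same libraries picked it. The most opposite were Mfsd12 (-0.997), Zfhx2 (-0.982), Tnip1 (-0.975), Rasip1 (-0.975) and Zc3h12c (-0.975). Since the groups differ, such an r also carries the difference between KO and WT: 109 genes exceeded 0.9 and 139 were below -0.9. The 10 genes themselves had values of 0.853 (Vwa1) to 0.992 (Gpr146) with the mean of the other 9.

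Relatives of these genes are read against the share over all genes. With LPS, 5.3% of all genes were called higher in KO and 5.5% lower. Among 9 tested genes of flotillins and caveolae, 1 rose and 1 fell: Flot2, the partner of Flot1, fell from 28.5 to 24.1 CPM (-0.24 ± 0.054, edgeR adjusted p = 0.00595), and Cavin1, a caveola coat protein, rose (0.95). Flot1 and Flot2 held 22.4 and 31.6 CPM in WT control. Among 23 tested cytohesin and ARF genes, 3 rose (Asap1 0.46, Iqsec2 0.36, Arf3 0.18) and 2 fell (Ipcef1 -1.23, Arf2 -0.47). Cyth1, Cyth2 and Cyth3 had values of 0.21, 0.14 and 0.11 and were not called (edgeR adjusted p = 0.0846, 0.165 and 0.362).

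Among 22 tested EPS8 relatives and actin partners, Abi1 (0.19) and Baiap2 (0.24) rose and Coro1a (-0.16) fell. Eps8l1 stood at 12.1 CPM in WT LPS and 6.42 CPM in KO LPS without a call (-0.93 ± 0.332, edgeR adjusted p = 0.0805), but it was called lower in control, at 19.0 and 7.29 CPM. Eps8l2 had -0.31 (edgeR adjusted p = 0.238). Of 18 tested semaphorins, plexins and neuropilins 5 rose and 1 fell. Plxnd1 (0.63), Sema6d (0.49, from 1259 to 1765 CPM), Nrp2 (0.39) and Plxnc1 (0.35), with Sema4a (0.19), were the ones that rose, and Plxnb2 (-0.68), a receptor of class 4 semaphorins, fell. Sema6a and Sema6c were in the table but under the filter, as was Olfm2.

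**Figure D5:**
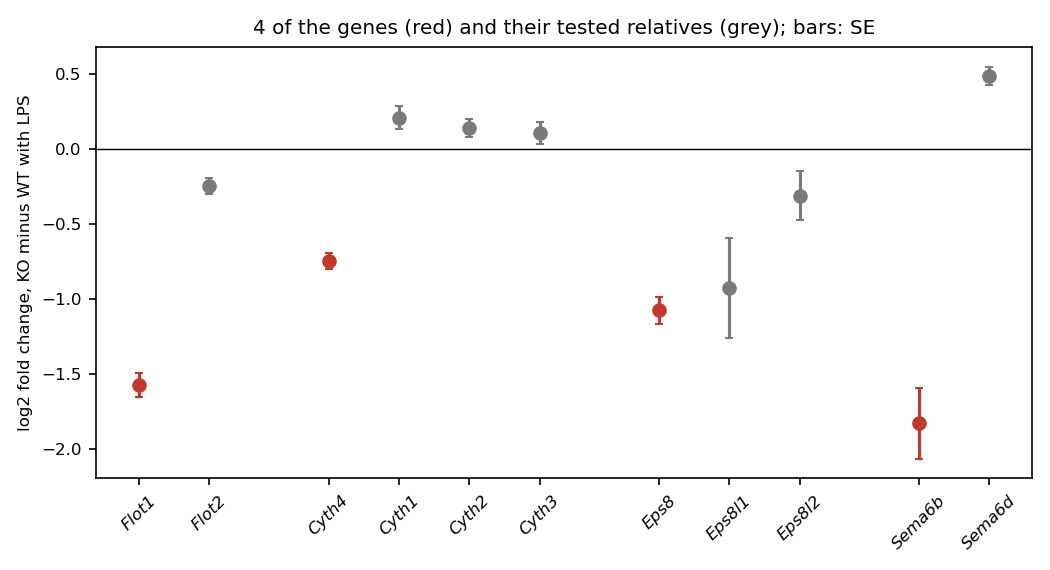
Log2 fold change of KO minus WT with LPS, with SE bars, for Flot1, Cyth4, Eps8 and Sema6b (red) and their tested closest relatives (grey). The red points lie between -0.75 and -1.83; the relatives run from -0.93 (Eps8l1) to 0.49 (Sema6d).

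Among 26 other tested genes that attach or remove palmitate, none rose and 1 fell, the depalmitoylase Ppt1 (-0.25). No call was made among 4 tested genes of serotonin handling. Behind receptors of the Htr7 type, 25 genes of cyclic AMP signalling were tested, of which 1 rose and 1 fell. Ptger2, a prostaglandin E2 receptor that also acts through Gs, fell from 4.92 to 1.59 CPM (-1.62 ± 0.111, edgeR adjusted p = 8.47e-09), and the phosphodiesterase Pde4a rose (0.48). Ptger2 stood at 26.7 CPM in WT control and 24.7 CPM in KO control (edgeR adjusted p = 0.59).

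Among 28 tested GPR-named and orphan receptors other than Gpr146 and Gpr171, 3 rose, among them Gpr162 (0.43) and Gpr34 (0.38), and 4 fell (Gpr31b -0.68, Gpr55 -0.48, Gpr35 -0.30, Gpr82 -0.28). Of 6 tested olfactomedin genes and partners, Rtn4 rose (0.20). No call was made among 13 genes with von Willebrand A domains or of the basement membrane. The list medians ran from -0.20 for that list to 0.14 for the serotonin and the semaphorin lists, beside -0.02 for all genes.

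The 10 genes lie on 9 chromosomes, with Flot1 and Sema6b both on chromosome 17. Of the 20 nearest tested genes on either side in RefSeq order, 5 were called lower in KO with LPS and 1 higher, where 5.5% and 5.3% of all genes were, with a median of -0.20 against -0.02 over all genes. Ier3 (-0.96), an early response gene, and Tubb5 (-0.33), a tubulin, flank Flot1. C130050O18Rik (-1.32) lies beside Gpr146 and was near the floor, at 0.45 CPM in WT LPS and 0.18 CPM in KO LPS. Tnfaip8l1 (-0.49) lies beside Sema6b, and Strap (-0.26) and Ptpro (0.44) flank Eps8. Strap (-0.28) and Ptpro (0.44) were also called in control, with edgeR adjusted p values of 0.00728 and 0.00649.

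Whether counting used the strand is not stated, so reads of overlapping genes cannot be told apart. Gpr146 overlaps 3110082I17Rik on the opposite strand, which stood at 6.35 CPM in WT LPS and 5.50 CPM in KO LPS (-0.21, edgeR adjusted p = 0.399). Gpr171 lies within Med12l on the opposite strand, which stood at 10.1 CPM in WT control and at 118 CPM in WT LPS and 124 CPM in KO LPS (0.08, edgeR adjusted p = 0.609). Neither overlapping gene was called between genotypes with LPS, which does not show equal levels. The part of their reads in the counts of the receptors was not tested. Vwa1 and Eps8 overlap non-coding genes that were not analysed here.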

How the data were processed

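RNA of 18 BMDC libraries was read as 150-base pairs on the DNBSEQ platform, per the labels' protocols. Per the series design text, marrow grew for 7 to 10 days with Flt3L (100 ng/ml) and GM-CSF (20 ng/ml) before a sort or a bead selection by XCR1; which samples had which is not stated. HISAT and Bowtie2 with build GRCm39 are named in the submitters' processing notes; for versions, annotation and counting program the entry is: not given in the sources used here. Per gene and library there are deposited estimated counts, TPM and FPKM, per the file headers. The estimated counts from the authors are not normalized; 6.37% of them are not whole (tolerance 0.001), and all were rounded. The deposited TPM values, scaled by length, were used to order levels between genes, and the deposited FPKM values were not used.

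edgeR 4.0.16 (R 4.3.3, TMM factors, minimum count 10 and total 15) fitted 1 mean per group to all 18 libraries by quasi-likelihood, and calls needed an adjusted p under 0.05 (Benjamini-Hochberg over 11989 genes). limma 3.58.1 and DESeq2 1.42.0 were alternatives, with other scalings, no filter, blocks and libraries left out. The scripts were tested on simulated data. Members, gene lists and tests were chosen with earlier results of these data known. Named are the 10 genes, up to 4 genes per list and direction called in KO against WT with LPS, the closest relatives, the 5 most alike and most opposite genes, the nearest tested neighbours, and the 3 genes on either side of Cyth4 in the wider set. A gene that this rule takes is not reported here. RefSeq tables of GRCm38.p6 matched 16495 of 16614 gene IDs and gave names, neighbours and promoters; no coordinates of the files' build are given. Gene overlaps were read from the GENCODE annotation at hand. Replicates of a group differed by more than counting error in each of 32 pairs (chi-square per degree of freedom 2.75 to 78.3).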

Additional observations from a re-analysis of the deposited data

Results flagged for a closer look

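Among the 40 combinations of a gene and a group, 2 had a library far from the rest, and chance alone would mark about 1 in 20. Flot1 in WT LPS replicate 2 was the highest library of its group at 31.5 CPM, with the next at 26.1 CPM. Gpr171 in KO LPS replicate 1 was the lowest of its group at 24.6 CPM, with the next at 28.8 CPM.

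The LPS change in KO minus that in WT, on the log2 scale, passed edgeR's test of the difference for all 10 genes, which were chosen for it. It was -1.83 for Olfm1, -1.44 for Flot1, -2.05 for Gpr146, -0.999 for Gpr171 and -1.26 for Htr7. It was -1.4 for Zdhhc23, -1.23 for Eps8, -0.854 for Cyth4, -1.62 for Sema6b and -2.15 for Vwa1.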

How the results depend on the processing

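Over the alternatives run, the 10 genes kept their side of the threshold in KO against WT with LPS, in control, in the difference of the LPS changes, in LPS averaged over genotypes and in LPS within KO. Directions were kept there too, except for Gpr171 in control, at -0.01 in the main fit and 0.03 without WT control replicate 4. For the comparisons between genotypes this follows in part from the choice of the genes. For LPS in WT, 17 of 260 values lost the call, and scaling by total counts reversed Flot1 (-0.495), Htr7 (-0.599), Zdhhc23 (-0.505) and Cyth4 (-0.554); total-count scaling by its construction omits the composition factor. Leaving out libraries left 8 to 10 of the 10 called there.

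Counts over all genes moved more, and the cause was not tested. KO against WT with LPS called 1294 genes, 806 (without KO LPS replicate 1) to 3345 (without WT LPS replicate 2) when a library was left out, 3240 without both LPS replicates 2, and 608 when only the 2 groups were fitted. With a block of library runs this comparison called 1915. KO against WT in control called 289, 118 (without WT control replicate 3) to 751 (without WT LPS replicate 2) with a library left out, 849 without both LPS replicates 2, 494 with DESeq2, 614 with a block of library runs and 889 with only the 2 groups. Of these control calls 78.2% were higher in KO, and 67.0% with DESeq2, 63.5% without both LPS replicates 2 and 55.0% with only the 2 groups. The difference of the LPS changes called 458, 214 (without WT control replicate 3) to 1501 (without WT LPS replicate 2) with a library left out, 1556 without both LPS replicates 2, 813 with DESeq2 and 882 with the block of library runs. Of these 27.1% were higher, and 42.9% with DESeq2 size factors. With total counts 22.6% of the calls for averaged LPS were higher, against 47.1%.

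Replicate numbers were not taken to pair the samples, although the 5 pairs with LPS and the 4 in control were all positive: deviations of same-numbered WT and KO libraries correlated at 0.00923 to 0.353 with LPS and 0.0287 to 0.248 in control, and 1 WT library in each condition correlated best with its own number. The library runs, formed from library numbers alone, hold the same pairs of WT and KO libraries together, and the higher counts with that block stand above. With the replicate number as a block, 10 genes stayed called with LPS and 0 in control, 9 were called for LPS in WT (8 with the block of library runs), and over all genes 1202, 260 and 390 were called with LPS, in control and for the difference of the LPS changes. The median correlation between pairs of the 10 genes was 0.212 within LPS libraries and 0.174 without both LPS replicates 2. Depth limits Vwa1 most, with 11 counts over the KO LPS libraries.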
